A study of Mus musculus with 6 samples.

Results

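In mouse macrophages given lipopolysaccharide (LPS), 1240 sites that CTBP2 already occupied gained signal, and these sites are described here. They were selected on measured values, out of 62236 sites in all. Each library's deposited signal was divided by its own median over sites and multiplied by 45, which gives the scaled value used below. A site was taken as already bound where all 3 vehicle libraries had a scaled value of 45 or more, so "bound" means at or above the median listed site. It was taken as gaining where M, the log2 of the mean LPS value plus 1 minus the log2 of the mean vehicle value plus 1, was 0.6 or more and the lowest LPS value lay above the highest vehicle value. The 1240 sites made up 1.99% of all sites, 4.73% of the 26194 bound sites and 14.9% of the 8332 sites that met both conditions on the gain at any vehicle level.

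The libraries came from chromatin immunoprecipitation and sequencing (ChIP-seq) of CTBP2 in bone marrow-derived macrophages, cells grown out of marrow in medium conditioned by L929 cells. Donor animals were wildtype male C57BL6/N mice aged 6 to 12 weeks. There were 3 libraries of cells given the vehicle, PBS, and 3 of cells given LPS at 100 ng/ml, each for 3 h. Both groups were crosslinked with DSG and then formaldehyde and precipitated with a commercial CTBP2 antibody. Replicates are numbered in the labels without a statement that they were separate animals or cultures, so the spread between libraries may be technical. No input or control precipitation was analysed here, and ChIP does not measure RNA, so the cell type could not be checked against its marker transcripts.

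CTBP2 is a transcriptional co-repressor that does not bind DNA through a specific sequence of its own. It is brought to chromatin by DNA-binding partners such as the ZEB factors and works in complexes with histone deacetylases and the histone demethylase LSD1. LPS is sensed by the receptor TLR4, which activates NF-kB, AP-1 and interferon regulatory factors and with them genes of cytokines, chemokines and antiviral proteins.

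Read as multiples of the smallest step of each column, the 6 libraries held 3243258 to 4553177 reads in sites. A gaining site held a median of 63 to 87 such reads in the vehicle libraries and 130 to 163 in the LPS libraries, and no gaining site had fewer than 39 in any library. The deposited values differed in level between libraries, with medians of 35.5, 37.3 and 73.0 in vehicle 1, 2 and 3 and of 37.1, 48.8 and 61.0 in LPS 1, 2 and 3. Scaling to the median removed these differences, and it sets the median site of each library equal by construction. The median M over all sites was -0.02 on both the deposited and the scaled values.

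Sites are named after the gene with the nearest start. Site positions are printed as deposited and taken to be on GRCm39, one of the builds in the submitters' processing notes, while the gene columns of the table follow GRCm38. Gene starts were therefore placed among the sites with an offset measured within the table, in steps of 250 bp, so a distance under about 0.25 kb is given only as "at the start". Only 370 of the 1240 sites carry the same gene name in the table itself. The nearest start is a label of position and not a target.

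Examples of start regions of gaining sites are shown first, because such regions hold more of the words of the LPS-activated factors than other starts do. The examples are not typical, since all but the last hold a marked word. Among the gaining windows counted below, NF-kB words were in 11.7%, AP-1 words in 10.8%, PU.1 words in 7.50% and ISRE words in 6.67%. Each sequence is the 250 bases before the start of a gene with a gaining site within 1 kb, 5′ to 3′ on the strand of the gene, from RefSeq (GRCm38.p6). Capitals mark matches on either strand to the words searched: GGANTTTCC or GGGANTTCC for NF-kB, TGANTCA for AP-1, GAAANTGAA for the interferon-stimulated response element (ISRE) and GAGGAAGT for PU.1. The first 3 are an interferon-induced GTPase gene, an atypical chemerin receptor gene and a cytokine gene with an NF-kB word, followed by an interferon-induced antiviral gene and a further GTPase gene with ISRE words.
Gbp5, chr3:142496684-142496933, plus strand: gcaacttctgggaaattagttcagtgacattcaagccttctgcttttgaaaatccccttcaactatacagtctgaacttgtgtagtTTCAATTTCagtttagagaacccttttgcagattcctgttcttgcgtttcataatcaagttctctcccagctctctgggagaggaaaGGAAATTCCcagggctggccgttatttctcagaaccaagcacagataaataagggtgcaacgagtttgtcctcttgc
Ccrl2, chr9:111057519-111057768, minus strand: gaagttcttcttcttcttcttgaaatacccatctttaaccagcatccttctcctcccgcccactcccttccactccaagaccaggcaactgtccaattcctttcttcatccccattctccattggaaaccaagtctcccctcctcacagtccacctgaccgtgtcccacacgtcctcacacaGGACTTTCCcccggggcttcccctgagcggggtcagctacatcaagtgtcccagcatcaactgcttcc
Il6, chr5:30012864-30013113, plus strand: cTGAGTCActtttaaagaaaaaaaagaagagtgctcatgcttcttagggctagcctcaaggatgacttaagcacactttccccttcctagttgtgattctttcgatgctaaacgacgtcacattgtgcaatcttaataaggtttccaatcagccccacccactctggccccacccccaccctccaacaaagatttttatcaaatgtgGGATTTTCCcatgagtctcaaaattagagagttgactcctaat
Ifit1, chr19:34640639-34640888, plus strand: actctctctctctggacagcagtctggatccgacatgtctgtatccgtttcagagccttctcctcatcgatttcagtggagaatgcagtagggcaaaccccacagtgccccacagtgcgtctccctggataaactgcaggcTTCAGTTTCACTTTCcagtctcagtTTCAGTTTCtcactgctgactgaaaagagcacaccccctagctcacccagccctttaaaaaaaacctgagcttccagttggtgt
Gbp2, chr3:142620413-142620662, plus strand: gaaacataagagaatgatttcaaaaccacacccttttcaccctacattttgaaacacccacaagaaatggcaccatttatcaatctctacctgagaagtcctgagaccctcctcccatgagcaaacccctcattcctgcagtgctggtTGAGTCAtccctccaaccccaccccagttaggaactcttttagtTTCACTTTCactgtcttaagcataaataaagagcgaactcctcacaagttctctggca
The next 2 hold AP-1 words and belong to genes of cell death and survival, a death receptor and a BCL2 relative. The last is the start region of Socs3, the gaining site of highest M at a start, which holds none of these words.
Fas, chr19:34290409-34290658, plus strand: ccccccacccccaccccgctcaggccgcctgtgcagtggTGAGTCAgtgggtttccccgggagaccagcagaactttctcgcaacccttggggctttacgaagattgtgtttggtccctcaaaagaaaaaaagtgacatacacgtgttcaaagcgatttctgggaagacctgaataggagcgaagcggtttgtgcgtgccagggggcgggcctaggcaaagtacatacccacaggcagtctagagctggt
Bcl2a1a, chr9:88956670-88956919, plus strand: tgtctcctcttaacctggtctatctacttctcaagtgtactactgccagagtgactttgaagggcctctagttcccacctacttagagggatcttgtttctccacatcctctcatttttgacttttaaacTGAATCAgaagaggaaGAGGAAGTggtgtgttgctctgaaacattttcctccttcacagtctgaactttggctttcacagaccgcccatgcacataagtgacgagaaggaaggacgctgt
Socs3, chr11:117969367-117969616, minus strand: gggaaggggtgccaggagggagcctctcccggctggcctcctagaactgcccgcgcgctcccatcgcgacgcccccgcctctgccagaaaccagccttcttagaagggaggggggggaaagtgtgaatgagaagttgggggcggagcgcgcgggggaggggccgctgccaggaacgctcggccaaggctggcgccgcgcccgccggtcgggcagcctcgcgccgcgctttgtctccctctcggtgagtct

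In Gbp5 the ISRE word began 164 bases and the NF-kB word 77 bases before the start. In Ccrl2 the NF-kB word began 68 bases and in Il6 43 bases before it, with an AP-1 word at the far end of the Il6 window. Ifit1 held 3 ISRE words, 109, 103 and 84 bases before the start, and the first pair overlap. Gbp2 held an AP-1 word 102 bases and an ISRE word 58 bases before its start. The Bcl2a1a window held an AP-1 word at 120 bases and a PU.1 word at 104 bases, and the Fas window an AP-1 word at 211 bases.

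Of the 294 gaining sites within 1 kb of a start, 240 could be matched to a RefSeq protein-coding promoter within 1 kb. Its window ran from 250 bases before to 50 bases after the start. With the starts of table genes included, 289 gaining sites lay within 1 kb of a protein-coding start, so some such starts were not searched. NF-kB words were in 28 of the 240 windows (11.7%), against 3.51% of 3788 windows at bound sites whose M lay between -0.2 and 0.2, called level sites here, and 3.07% of all 21262 protein-coding windows. ISRE words were in 6.67% of gaining, 1.21% of level and 2.11% of all windows. AP-1 words were in 10.8%, 4.07% and 6.99%, and PU.1 words in 7.50%, 3.35% and 3.13%, in the same order. Copies of duplicated genes were counted as separate starts. The gaining starts with a PU.1 word included Bcl2a1a, Bcl2a1b, Bcl2a1c and Bcl2a1d, and those with an AP-1 word included Bcl2a1a, Bcl2a1b and Bcl2a1d. Those with an ISRE word included several Gbp, Ifit and Oas genes. The part of such copies in the word shares was not tested. These shares are descriptions of start regions, and the sites themselves were not searched, because no genome of their build was used here.

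The 28 starts with an NF-kB word included those of NF-kB family members and regulators (Nfkb2, Rel, Tnfaip3), of Csf1 and Il6, both cytokine genes, and of Icam1, an adhesion molecule gene. The 16 with an ISRE word were mostly of antiviral and GTPase families, among them Gbp2, Gbp5, Gbp7, Ifit1, Ifit3, Ifit3b, Oas1a, Oas1c, Oas1g and Irgm2. Words for STAT factors (TTCCNGGAA) were in 2.92% of gaining windows and 1.27% of level ones, and one of them lay at the start of Cish, a cytokine signalling inhibitor gene. EGR words (GCGTGGGCG) were in 3.33% and 1.24%, C/EBP words (TTGCNNAA) in 12.1% and 7.15% and RUNX words (TGTGGTT) in 6.25% and 3.43%. Over all protein-coding windows the STAT share was 1.17%, EGR 0.828%, C/EBP 10.2% and RUNX 4.71%. The gaining share of C/EBP words thus lay nearer to that of all windows than to that of level ones. Some words were as frequent or less frequent at gaining than at level starts. The CRE word TGACGTCA was in 1.67% of gaining and 4.20% of level windows, the MiT/TFE word CACGTGA in 4.17% and 7.07%, and the NF-Y word CCAAT in 38.3% and 36.1%. Over all windows these shares were 2.23%, 4.39% and 38.2%. For CRE and MiT/TFE the gaining windows were thus near all windows, and the level ones stood above both. The E-box CACCTG, to which ZEB factors bind, was in 18.3% and 16.6%, and in 19.7% of all windows. Base composition differed as well, with a median GC content of 60% in gaining, 62.7% in level and 56.3% in all windows, and its part in the word shares was not tested.

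Over the 1240 sites the median of the vehicle mean was 71.3, with quartiles of 59.2 and 92.8, and the median of the LPS mean was 135, with quartiles of 111 and 176. By library the median was 70.2, 71.2 and 72.7 in vehicle 1, 2 and 3 and 136, 133 and 135 in LPS 1, 2 and 3. M ranged from 0.60 to 3.58 with a median of 0.82, which the rule set from below at 0.6. At 319 sites (25.7%) M was 1 or more, at 57 it was 1.5 or more, at 8 it was 2 or more and at 2 it was 3 or more. The median coefficient of variation between libraries was 10.8% in vehicle and 9.49% in LPS, against 11.4% in each over all bound sites. The rule forbids overlap of the groups and so favours a small spread, and nothing is read from this difference.

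**Figure D1:**
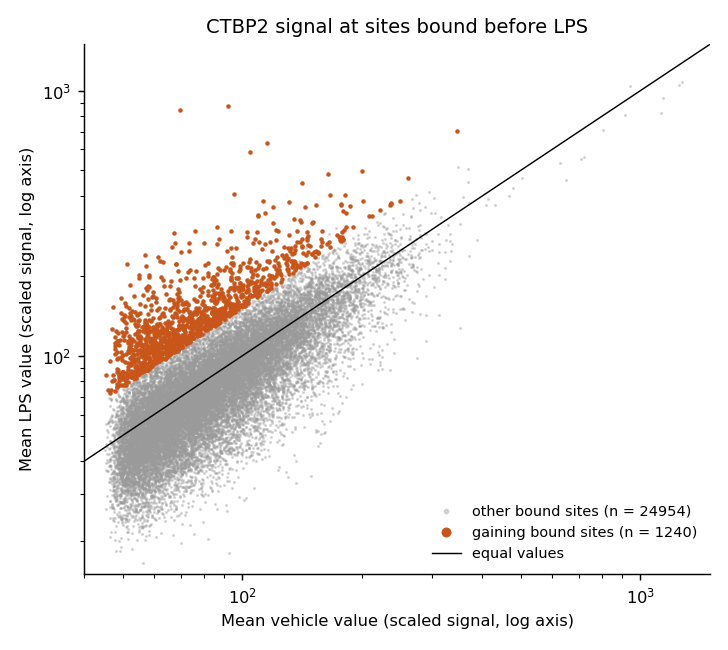
Mean LPS value against mean vehicle value (scaled signal, both axes logarithmic) for the bound sites, with the 1240 gaining sites in orange, other bound sites in grey and a line of equal values; 8 sites beyond the axes are not drawn. The gaining sites form the upper edge of 1 continuous cloud, with 4 points far above it (Tnf, Ccl4, Ccl3 and Nsd1) and 1 far to the right (Fth1).

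The threshold did not separate a distinct group. Just inside it lay sites nearest to Tbc1d21, Pam and Mfhas1, with M of 0.6006, 0.6007 and 0.6010, and just outside it sites nearest to Filip1l, Cyrib and Gm960, with M of 0.5996, 0.5996 and 0.5995. A further 440 bound sites without overlap had M between 0.5 and 0.6, against 348 gaining sites between 0.6 and 0.7. Only 23 bound sites had M of 0.6 or more and were left out because their groups overlapped. At the lower limit on the vehicle value, 752 sites met both conditions on the gain but had only some vehicle values of 45 or more, while 233 gaining sites had their lowest vehicle value between 45 and 50.

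The share of bound sites that gained was smaller at higher vehicle levels. The vehicle values also enter M and the condition on overlap, so the rule itself bears on this trend and nothing is read from it. It was 6.89% of sites with a mean vehicle value of 45 to 60, 5.21% at 60 to 90, 3.45% at 90 to 150 and 2.28% at 150 to 300. Above 300 it was 1 of 55 sites, the Fth1 site. The median M of all bound sites moved little over these classes, from -0.15 to -0.10 below 150, -0.12 at 150 to 300 and -0.23 above 300.

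Since the rule used the same contrast, the calls over these sites are given with nothing read from them. By the rule the groups did not overlap at any of the 1240, as was so with LPS on top at 21.6% of all sites. In a limma fit across all sites on scaled values, 1233 of the 1240 were higher in LPS at an adjusted p under 0.05, against 16.1% of all sites. On the values as deposited limma called 75 of them, against 1.89% of all sites, although the log2 difference was above 0 at all 1240. The LPS values lay wholly above the vehicle values at 478 (38.5%) of them on that scale, against 9.01% of all sites. The authors' deposited table called 177 of them higher at an FDR under 0.05 (14.3%), against 4.01% of all sites. Its log2 folds over the 1240 sites in the authors' deposited table ran from 0.095 to 2.09 with a median of 0.35.

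The gain was also measured in libraries left out of the choice of sites. These are among the same 6 libraries, replicates may be technical, and the list of sites may have drawn on the library left out. The values are thus a description and not an independent test. The rule was applied to the libraries of 2 replicate numbers, and the log2 difference between LPS and vehicle was read in the libraries of the number left out. With number 1 left out, 1290 sites were chosen, their median held-out difference was 0.87, and it was above 0 at 99.5% of them and 0.6 or more at 76.5%. With number 2 left out there were 1380 sites with a median of 0.77, above 0 at 99.5% and 0.6 or more at 71.2%. With number 3 left out there were 1551 sites with a median of 0.77, above 0 at 95.2% and 0.6 or more at 65.6%. Over all sites bound in the other vehicle libraries, the held-out medians were -0.07, -0.07 and -0.19, and 7.63%, 6.62% and 6.24% reached 0.6.

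**Figure D2:**
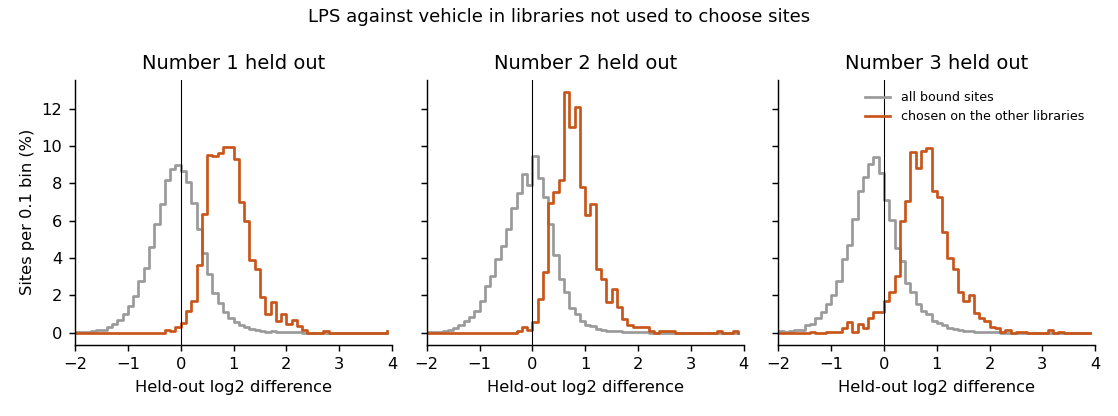
Distribution of the log2 difference between the LPS and the vehicle library of the replicate number left out (horizontal axis, bins of 0.1; vertical axis, percent of sites), for sites chosen on the other libraries in orange and all sites bound in them in grey. The orange distributions centre on 0.87, 0.77 and 0.77 and the grey ones just below 0.

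The highest M belonged to cytokine and chemokine genes. The Tnf site (chr17:35418184-35419184, named H2-Q6 in the table) lay inside the gene, 2.31 kb past its start, and Tnf encodes the cytokine TNF. Its scaled values were 50.5, 53.2 and 105 in vehicle 1, 2 and 3 and 800, 804 and 922 in LPS 1, 2 and 3. Vehicle 3 stood above the other vehicle libraries, and the lowest LPS value was still far above it. The means were 69.6 ± 30.7 and 842 ± 69.6 (n = 3, SD), a 12.0-fold change with M of 3.58.

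The chemokine genes Ccl4 and Ccl3 are neighbours on chromosome 11. At the Ccl4 site (chr11:83555262-83556262), 2.35 kb past the start, the values were 92.2, 71.2 and 113 in vehicle and 619, 844 and 1163 in LPS. At the Ccl3 site (chr11:83538096-83539096), 1.59 kb past the start, they were 96.6, 94.9 and 121 in vehicle and 453, 593 and 714 in LPS. In both, the LPS libraries spread more widely than the vehicle ones and every LPS value was above every vehicle value by several fold. The changes were 9.41-fold and 5.59-fold, with M of 3.23 and 2.48.

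The cytokine signalling inhibitor genes Socs3, Socs1 and Cish had gaining sites at their starts. Socs3, whose product blocks signalling through the gp130 receptors, had 86.7, 94.9 and 104 in vehicle and 407, 407 and 408 in LPS at chr11:117859473-117860473. These LPS libraries were nearly equal, and M was 2.09. Socs1, whose product blocks interferon signalling, had 137, 164 and 190 in vehicle and 466, 498 and 487 in LPS at chr16:10602837-10603837, with M of 1.56. Cish had 88.9, 91.6 and 80.8 in vehicle and 296, 266 and 265 in LPS at chr9:107173475-107174475, with M of 1.65. All 3 sites started from vehicle values above the median of the gaining sites and rose by 2.94-fold to 4.25-fold.

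Of the 294 gaining sites within 1 kb of a start, 21 were nearest to genes of the interferon list used below. Gbp5 (chr3:142202371-142203371) had 51.6, 63.8 and 55.4 in vehicle and 202, 232 and 288 in LPS, with M of 2.06. Isg20, an antiviral exonuclease gene, had 77.9, 103 and 99.2 in vehicle and 299, 299 and 288 in LPS at chr7:78563151-78564151, with M of 1.65. The Ifit1 start (chr19:34617775-34618775) had 48.3, 65.4 and 61.2 in vehicle and 111, 137 and 163 in LPS, with M of 1.22. The Irf1 start, of a transcription factor gene of the interferon response, had 138, 142 and 180 in vehicle and 369, 385 and 357 in LPS, with M of 1.27. Ifit1 gained from near the lower limit and Irf1 from well above it. The Ifit1 and Irf1 starts, like those of Il6, Gbp2 and Nfkb2 below, were picked out after their values were seen.

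Il6 (chr5:30217587-30218587) had 64.8, 66.3 and 69.2 in vehicle and 133, 152 and 171 in LPS, a 2.26-fold change. Gbp2 had 51.6, 63.0 and 71.5 in vehicle and 119, 120 and 179 in LPS, with LPS 3 above the other 2. The start of Nfkb2, which encodes an NF-kB subunit precursor, had a site with 98.8, 90.0 and 138 in vehicle and 255, 280 and 340 in LPS, and the uncharacterised gene 4833438C02Rik starts slightly nearer to it. Both groups were highest in replicate 3 at Nfkb2, and they did not overlap in any of these sites.

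Receptors and cell surface genes were also among the starts of highest M. At Ccrl2 (chr9:110886664-110887664) the values were 83.4, 67.1 and 69.2 in vehicle and 240, 252 and 250 in LPS, with M of 1.74. Cd40, a co-stimulatory receptor gene, had 96.6, 111 and 120 in vehicle and 333, 322 and 357 in LPS. Fas had the lowest start among these, 45.0, 46.6 and 56.5 in vehicle, with 189, 146 and 158 in LPS and M of 1.72. The amino acid oxidase gene Il4i1, the cystine transporter gene Slc7a11 and the MAP kinase phosphatase gene Dusp2 had M of 1.92, 1.80 and 1.76. Zfas1, a noncoding RNA gene, had 71.3, 52.4 and 78.5 in vehicle and 221, 298 and 350 in LPS, with M of 2.09.

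Other sites of highest M lay far from any start. At 19.7 kb upstream of Nsd1, a histone methyltransferase gene, a site on chromosome 13 (chr13:55337331-55338331) had 119, 108 and 119 in vehicle and 524, 628 and 757 in LPS, with M of 2.46. A site 12.6 kb upstream of Pnrc1 had 50.5, 51.5 and 51.9 in vehicle and 266, 225 and 177 in LPS. At 78.1 kb inside Foxp1, a transcription factor gene, the values were 71.3, 66.3 and 65.8 in vehicle and 298, 255 and 242 in LPS. In the last pair LPS 1 was the highest library, whereas LPS 3 was the highest at Nsd1, Ccl3 and Ccl4. Sites 57.2 kb upstream of Peli1, a ubiquitin ligase gene of TLR signalling, and 17.9 kb inside Alpk2 had M of 1.93 and 1.94.

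At the sites with the highest vehicle values, M was mostly below the median of 0.82 over the gaining sites. M is a log ratio to the vehicle value, so a lower M there is not a smaller gain in signal. Fth1, the gene of the ferritin heavy chain, had a site 3.33 kb past its start (chr19:9962832-9963832) with 311, 296 and 432 in vehicle and 565, 655 and 900 in LPS. It was the only 1 of the 8 highest in vehicle with M above 1, at 1.03. The Irf1 site 6.41 kb upstream had 249, 245 and 288 in vehicle and 491, 483 and 434 in LPS, with M of 0.84. The other 6, nearest to Peds1, Oasl1, Socs3, Brd2, Fcgr3 and Nfkbiz, had vehicle means of 212 to 249, LPS means of 338 to 384 and M of 0.62 to 0.68.

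**Figure D3:**
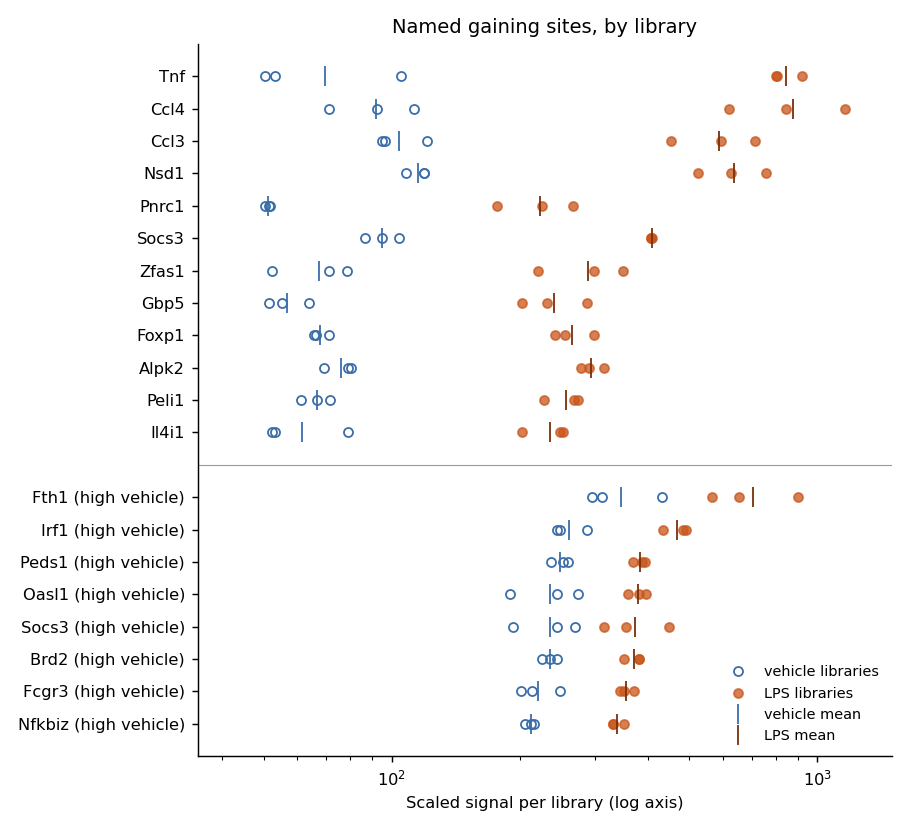
Scaled signal in each library (horizontal axis, logarithmic) for the 12 gaining sites of highest M, 1 per gene, above the line and the 8 of highest vehicle mean below it; open circles are vehicle libraries, filled circles LPS libraries and vertical ticks group means. No site has overlapping groups, which the rule requires, and the gap narrows from Tnf at the top to the sites of high vehicle value.

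The nearest genes were grouped by lists of genes by role, and the share of each list's bound sites that gained was read against 4.73% of all bound sites. The lists were drawn up with earlier results of these data known, and the shares carry no test. In the same limma fit on scaled values, 9.22% of bound sites were called higher in LPS and 22.6% lower. Over all sites these shares were 16.1% and 13.5%. Bound sites were selected on high vehicle values, and the part of that selection in the lower calls was not tested.

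Inflammatory mediators, the secreted cytokines, chemokines and their enzymes, had the highest share. Of their 83 bound sites 30 gained (36.1%), at 20 genes, with a median M of 0.42 over the 83, against -0.12 over all bound sites. Limma called 44 of the 83 higher and 7 lower. Besides Tnf, Ccl3, Ccl4 and Il6 these were sites of the growth factor genes Csf1, Csf2 and Lif, of the chemokine genes Ccl2, Ccl5, Cxcl10 and Cxcl16, and of Il15, Il27, Il1a, Edn1, Ptges, Inhba, F3, Tnfsf9 and Tnfsf15. At these genes 142 further sites gained from below, with all 3 vehicle values under 45.

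Interferon response genes had 30 gaining sites of 107 bound (28.0%), at 24 genes, and 21 of the 30 were within 1 kb of a start. Limma called 35 of the 107 higher and 12 lower, and their median M was 0.11. Among mediators 9 of 30 gaining sites were at a start. The interferon list included Irf7, Irf8, Jak2, Ifih1, Rsad2, Mx2, Cmpk2 and Parp14 next to the Gbp and Ifit genes. Gbp, Ifit, Oas and Fcgr genes have close paralogs, and reads that fit several copies may have been placed among them in a way the table does not show.

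Genes of the TLR4 and NF-kB pathway had 24 gaining sites of 138 bound (17.4%), at 18 genes. They comprised genes of the IkB family (Nfkbia, Nfkbib, Nfkbie, Nfkbiz, Nfkbid) and the inhibitor genes Tnfaip3 and Irak3. The others were kinase genes (Tbk1, Ikbke, Ikbkb, Map3k8, Ripk2, Irak2), the subunit gene Rel, the receptor gene Tlr2, and Birc3, Tab2 and Cd40. At Nfkbia, the gene of IkB alpha, the values were 142, 139 and 143 in vehicle and 327, 407 and 607 in LPS at a site 3.95 kb past its start. The vehicle libraries were nearly equal there, and LPS 3 stood well above the other LPS libraries. Limma called 45 of the 138 bound sites higher and 25 lower.

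Survival and cell death genes had 14 gaining sites of 107 (13.1%), and genes of anti-inflammatory feedback 22 of 174 (12.6%). Limma called 20 of the 107 higher and 22 lower (median M -0.02), and 40 of the 174 higher and 39 lower (median M -0.05). In the first list were the Bcl2a1 paralogs Bcl2a1a, Bcl2a1b and Bcl2a1d. Bcl2a1a had 51.6, 46.6 and 57.7 in vehicle and 154, 121 and 177 in LPS, and Bcl2a1b 90.0, 92.4 and 91.1 in vehicle and 215, 234 and 299 in LPS. These copies are close to identical, so which of them held the reads is uncertain. The feedback list included Adora2a, an adenosine receptor gene, with 81.2, 85.1 and 73.8 in vehicle and 273, 266 and 258 in LPS, and the glucocorticoid receptor gene Nr3c1.

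Other lists lay nearer to the share of all bound sites. It was 8.37% for macrophage identity (20 of 239), 8.30% for adhesion and motility (21 of 253), 7.65% for AP-1 and immediate early genes (15 of 196) and 5.63% for lipid metabolism (8 of 142). It was 3.77% for glycolysis and hypoxia (4 of 106) and 3.76% for MAPK signalling (7 of 186). In these 6 lists limma called fewer bound sites higher than lower, as it did over all bound sites, for example 33 against 64 in macrophage identity. Housekeeping genes had 0 of 37, which allows a share of up to 8.11% and so does not separate them from all bound sites.

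Genes of the CTBP co-repressor complex and its partners had 14 gaining sites of 205 bound (6.83%), at 8 genes, none within 1 kb of a start. The partner repressor genes Zeb1 and Zeb2 had sites with M of 1.21 and 1.07. Zeb2 was nearest to 20 bound sites, of which 3 gained and 6 were level. Over all its 81 sites M ran from -0.84 to 2.13, with a median of 0.26. At the Zeb1 site, 149 kb inside the gene, the values were 45.0, 53.2 and 45.0 in vehicle and 109, 115 and 112 in LPS, so that vehicle lay at the lower limit. Tle3, a Groucho-type co-repressor gene, had a site with M of 1.17, and Prdm1, the gene of the repressor BLIMP1, one with M of 0.97. Limma called 23 of the 205 higher and 53 lower.

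Of markers of other cell types, each list had a single gaining site. Neutrophil markers had 1 of 11 bound sites (Csf3r), lymphocyte markers 1 of 23 (Lck) and erythroid or stromal markers 1 of 12 (Kdr). The Kdr site lay 97.5 kb from its start.

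**Figure D4:**
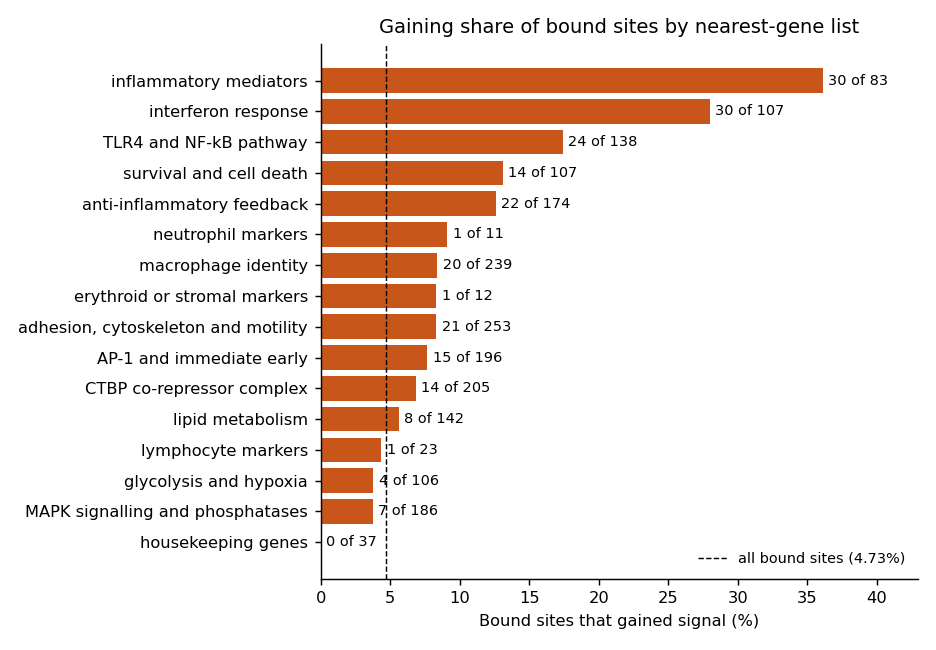
Percent of bound sites that gained (horizontal axis from 0) for the 16 lists of nearest genes, with the number of gaining and bound sites beside each bar and a dashed line at the 4.73% of all bound sites. The bars of inflammatory mediators (36.1%) and interferon response (28.0%) are the longest, and 3 lists have no more than 23 bound sites.

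Gaining sites had a gaining neighbour more often than level sites did, although most had none within 50 kb. The median number of other sites of any kind within 50 kb was 9 at gaining sites, 7 at level sites and 8 at gains from below. The part of this density in the shares below was not tested. With sites less than 50 kb apart joined, the 1240 sites fell into 993 loci, of which 808 held 1 site, 141 held 2 and 44 held 3 or more. In all, 1037 genes were nearest to a gaining site and 163 to at least 2. Among gaining sites 34.8% had another within 50 kb, against 13.2% of level sites, and 10.6% against 2.66% within 10 kb. Gains from below were in this respect close to the gaining sites, with a gaining site within 50 kb of 27.1% and within 10 kb of 8.97% of them. A gain from below lay within 10 kb of 36.4% of gaining sites, 10.2% of level sites and 34.1% of the gains from below themselves.

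Signal at the neighbours moved in the same direction. Among the 1892 other sites 2 to 10 kb from a gaining site, the median M was 0.41 and 34.9% reached 0.6. Among the 10469 such sites near a level site, the median M was -0.08 and 11.6% reached 0.6. Gaining and level sites are left out of these neighbours, while gains from below are included. Over all 50664 such sites, near or far, the median M was -0.05 and 15.0% reached 0.6. The median vehicle value was 32.0 near gaining sites, 39.1 near level sites and 38.5 over all such sites. The part of this difference in the M values was not tested.

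The most gaining sites in 1 locus were 5, at Hivep3 and Edn2 and at the Fc gamma receptor genes on chromosome 1. At the start of Fcgr2b, the inhibitory receptor, the values were 58.2, 67.1 and 81.9 in vehicle and 165, 155 and 176 in LPS. The site of Fcgr3, an activating receptor, had 201, 214 and 249 in vehicle and 343, 351 and 371 in LPS. The other 3, 2 at Fcgr2b and 1 at Fcgr4, had M of 1.15, 0.68 and 0.68. In vehicle the Fcgr3 site stood well above the others, while the start of Fcgr2b had the highest M.

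Csf2, the gene of the growth factor GM-CSF, was nearest to 4 bound sites, and all 4 gained. In the one 1.73 kb upstream the values were 53.8, 63.8 and 73.8 in vehicle and 157, 164 and 135 in LPS. The one 67.7 kb away had 68.1, 55.6 and 48.5 in vehicle and 194, 164 and 183 in LPS, with M of 1.63. The remaining pair had higher vehicle means, 136 and 110, and lower M, 0.73 and 0.62. A further 6 sites there gained from below.

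Il1a, an interleukin gene, was also nearest to 4 bound sites that all gained, with M from 0.72 to 0.95, and to 3 gains from below. The 4 lay 3.72 kb past the start and 10.2, 20.8 and 28.6 kb upstream, and the highest in both groups was that at 10.2 kb, with means of 124 ± 12.1 before and 205 ± 10.7 after LPS (n = 3, SD). Dhrs3 and Arhgef3 had 4 gaining sites among 7 and 5 bound ones, Pla2g4a 4 among 10, and Maf, a macrophage transcription factor gene, 4 among 25. At Maf the median M over all its 48 sites was -0.08, so that gaining and other sites were mixed along 653 kb. Socs3 and Socs1 had 3 gaining sites each, of 4 and 5 bound.

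Gaining sites were less often at gene starts than level sites and more often than gains from below. Of the 1240, 294 (23.7%, exact 95% interval 21.4% to 26.2%, counting error only) lay within 1 kb of a start. This share was 29.7% among all placed bound sites, from which the gaining sites were drawn, 42.9% among 10328 placed level sites and 2.56% among 6340 gains from below. The median distance was 12.2 kb, against 11.6 kb, 4.39 kb and 27.9 kb in the same order, and 21.7% of gaining sites were over 50 kb from any start. Sites inside the nearest gene made up 41.4% of gaining and 45.3% of level sites. The vehicle level moves with position, so the comparison was repeated among sites with a mean vehicle value of 90 or more, where 36.9% of 333 gaining and 48.3% of 4388 level sites were within 1 kb.

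Over all bound sites the median M was 0.00 within 1 kb of a start, -0.16 from 1 to 10 kb and -0.22 beyond. The part in these medians of selecting bound sites on their vehicle values was not tested. Among the gaining sites, whose M the rule held at 0.6 or more, it was 0.82 at the 294 within 1 kb, 0.83 at the 276 between 1 and 10 kb and 0.81 at the 670 beyond, from which nothing is read. The median vehicle and LPS values of gaining sites were 84.7 and 157 within 1 kb, 71.4 and 133 from 1 to 10 kb, and 67.1 and 127 beyond. The highest M was 2.09 within 1 kb (Socs3), 3.58 from 1 to 10 kb (Tnf) and 2.46 beyond (Nsd1).

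**Figure D5:**
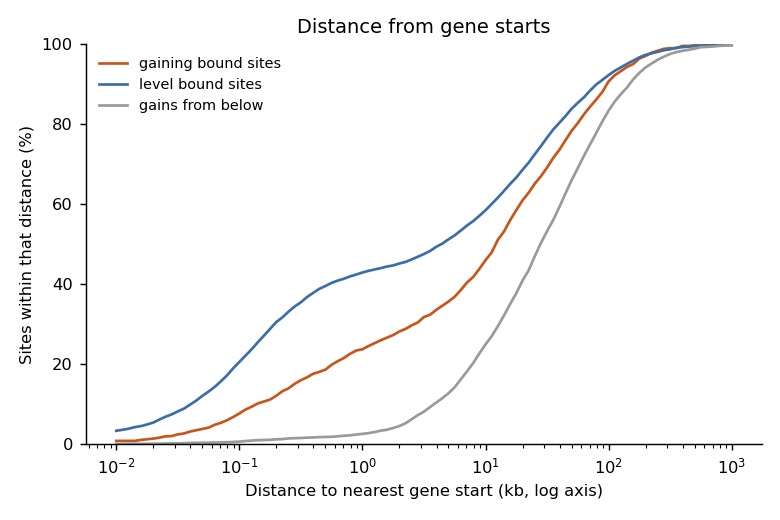
Cumulative percent of sites (vertical axis) by distance to the nearest gene start in kb (horizontal axis, logarithmic) for gaining bound sites in orange, level bound sites in blue and gains from below in grey. At 1 kb the curves stand at 23.7%, 42.9% and 2.56%.

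By chromosome the share of bound sites that gained lay between 3.30% (chromosome 14) and 6.15% (chromosome 7) on the autosomes. On the X chromosome it was 3 of 244 sites, or 1.23%.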

How the data were processed

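CTBP2 ChIP-seq signal of 3 vehicle and 3 LPS libraries was taken from 1 deposited table of 62236 sites, nearly all 1001 bp wide. The authors deposited a normalised signal per site and library, log2 concentrations, a log2 fold, p-values and FDR q-values from their own comparison. The submitters' processing notes name the aligner BWA 0.7.17, the peak caller MACS3 3.0.0a5 and DiffBind 3.16, besides tools for quality control and read handling, with mm39, GRCm39 and mm10 as builds of unstated roles. The basis of the normalisation and the pooling of libraries for peak calls are not given in the sources used here.

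Signal columns were divided by their median and multiplied by 45. In each column, values of up to 300 reads were multiples of a single step to within 0.1 read, which gave the depths, but the deposited values are normalised signal, so no count model was used. limma (version 3.58.1, R 4.3.3), with its trend and robust options, was fitted to log2(scaled value + 1) over all sites and libraries with Benjamini-Hochberg adjustment, after a check on simulated data. Python 3.11.15 with pandas 2.3.3 and numpy 2.4.6 gave the rest.

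The table's 8393 genes were placed among the sites by a shift measured along each chromosome (up to 1 Mb, steps of 250 bp, penalty 12, assumed share 0.35, at least 5 hits per stretch), which placed 8383 genes in 113 stretches. With the shift fitted on other genes, 70.6% of 4104 held-out starts had a site within 500 bp, against 9.37% of 4196 with no shift. RefSeq protein-coding starts of genes not in the table were added with the same shift and named 298 of the gaining sites. Of the table's genes 8055 matched RefSeq by symbol.

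The members and the gene lists were chosen with earlier results of these data known. Sites named by rule were the 12 of highest M (1 per gene), the 8 of highest vehicle mean, the 8 of highest M within 1 kb of a start, up to 4 per gene list, and the sites of the 6 genes with the most gaining sites, and not all of them are reported. Other named sites were picked after their values were seen. The alternatives tried were other scalings, thresholds, pseudocounts, start sets, a replicate block and leaving out each library.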

Additional observations from a re-analysis of the deposited data

How the results depend on the processing

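The scaling of libraries decides how many calls there are. On the values as deposited, limma called 1178 sites higher and 30 lower in LPS in place of 10039 and 8411, called 75 of the gaining sites in place of 1233, and the rule chose 388 sites in place of 1240, of which 341 were shared. With quantile normalisation the counts were 9249, 9649 and 1232, the rule chose 1144 sites and the median M of the gaining sites was 0.80. A pseudocount of 10 lowered that median from 0.82 to 0.74. The rule chose 696 sites with a vehicle minimum of 60, 2340 with one of 30 and 319 at M of 1 or more.

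The share within 1 kb of a start, 23.7%, was 29.7% within 2.5 kb, 23.3% with protein-coding starts only, 16.6% with starts of table genes only and 36.9% among gaining sites with a mean vehicle value of 90 or more, the last 2 added after seeing the data. Level sites had 32.2% with starts of table genes only. The held-out differences were also added then.

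Leaving out each library in turn gave 7691 to 10083 sites higher, 6030 to 7914 lower, 1221 to 1235 gaining sites called higher, 1230 to 1516 chosen sites and a median M of 0.81 to 0.84. With the replicate block, 11692 sites were higher and 10400 lower and 1240 gaining sites were called. The rule used the same contrast, so nothing is read from the calls over gaining sites. The numbers are shared by label only: deviations of same-numbered libraries correlated at 0.111, 0.038 and 0.214, and LPS 1 correlated best with vehicle 2, at 0.148.

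No value of the 85 sites named by rule changed direction under the 12 alternatives. The rule forbids overlap of the groups on scaled values, so a change was possible only on deposited or quantile-normalised values. On the deposited values 56 of them lost the limma call, and 1 lost it under another alternative. edgeR and DESeq2 fits and word searches within sites were not run, the first pair because the table holds normalised values and not counts and the last because no genome of the site build was used. Depth limits single sites, since the median site held 39 to 55 reads by the step of each column.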
